A study of Homo sapiens with 9 samples.

Results

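The binding sites of the transcription factors NKX2-1 and FOXA1 were compared within the lung adenocarcinoma cell line NCI-H3122. The peaks were those of the 3 deposited H3122 lists from precipitated chromatin. They numbered 48071 for NKX2-1 replicate 2, 7469 for NKX2-1 replicate 1 and 42437 for FOXA1, which is 97977 of the 125904 peaks in the 5 lists of the series. Replicate 2 was the list set against FOXA1 throughout, and replicate 1 served as a check. A peak counted as shared where it overlapped a peak of the other factor by at least 1 bp.

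Each list came from chromatin immunoprecipitation followed by sequencing (ChIP-seq), in which formaldehyde-fixed, sonicated chromatin is pulled down with an antibody and the recovered DNA is sequenced. The series covered NCI-H3122, NCI-H1819 and NCI-H2087, 3 lung adenocarcinoma lines that carry an amplified NKX2-1 gene, grown in RPMI1640 medium with serum; the labels name no treatment. NKX2-1 was pulled down with the Bethyl Laboratories antibody BL4000 in all lines, and FOXA1 with the Abcam antibody ab23738 in H3122 alone. The amplification was common to every group, and no line without it and no sample lacking either factor was analysed here. The other 4 of the 9 samples were inputs without precipitation, which were not analysed here. Nothing in the labels places the 2 H3122 NKX2-1 lists in separate cultures, and FOXA1 had 1 list, so no difference below has a test over samples. Intervals are 95% intervals that cover counting error over peaks, and neighbouring peaks are not independent of each other.

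NKX2-1 (TTF-1) is a homeodomain protein that specifies lung and thyroid. In the lung it is needed for the surfactant and secretory genes of the distal epithelium. FOXA1 is a winged-helix protein of the forkhead family, known as a pioneer factor because it can engage its DNA site on nucleosomes. Both belong to the set of factors that build the enhancers of endoderm-derived epithelia, and both have been described at promoters of surfactant and secretoglobin genes.

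The 3 lists differed in length and in width. Replicate 2 peaks had a median width of 656 bp (quartiles 524 and 825) and covered 34.4 Mb. FOXA1 peaks had a median of 569 bp (456 and 701) and covered 25.6 Mb. Replicate 1 peaks were narrower, with a median of 314 bp (273 and 394), and covered 2.56 Mb. The lowest score was 50 in replicate 1 and 60 in the other 2 lists, so the lists need not have been called alike. Sequencing depth is unknown here, and peak numbers are no measure of the amount of binding. A few peaks lay outside the named autosomes, X and Y, 10 in replicate 2 and 8 in FOXA1. These were left out, and what follows rests on the other, placed peaks.

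Close to 1 in 2 sites of either factor carried the other. Of the 48061 placed replicate 2 peaks, 22972 overlapped FOXA1, or 47.8% (47.4 to 48.2), and 25089 did not. Of the 42429 placed FOXA1 peaks, 23134 overlapped replicate 2, or 54.5% (54.1 to 55.0), and 19295 did not. Of the replicate 1 peaks, 3755 of 7469 overlapped FOXA1, or 50.3% (49.1 to 51.4). The replicates thus gave like shares over their whole lists, which differed several-fold in length. The whole of replicate 1 lay below the strongest replicate 2 peaks. In score deciles 9 and 10 of replicate 2 (4806 and 4807 peaks) the share was 69.4 and 83.7%. In deciles 9 and 10 of replicate 1's own score (747 peaks each) it was 61.7 and 78.6%. The strongest peaks of both lists thus had high shares, somewhat lower in replicate 1. In the other direction the list decided the value, since 8.72% of FOXA1 peaks overlapped the short replicate 1. Adding replicate 1 to replicate 2 raised the FOXA1 share from 54.5% to 54.7%.

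As deposited, and without regard to score, peaks found by both NKX2-1 replicates carried FOXA1 more often than peaks found by 1 replicate. Of the 5988 replicate 2 peaks that replicate 1 also contained, 3737 overlapped FOXA1, or 62.4%, against 45.7% of the other replicate 2 peaks. This direction turned at matched replicate 2 score, where peaks with FOXA1 were found in replicate 1 less often than those without, a difference of -3.11 percentage points that was negative in 10 of 10 deciles. The contrast was wider among replicate 1 peaks. FOXA1 was present at 3687 of the 6103 that replicate 2 contained, or 60.4%, and at 68 of the 1366 that it did not, or 4.98% (3.95 to 6.26). FOXA1 peaks told the same from their side, because 3639 of the 3700 that overlapped replicate 1 also overlapped replicate 2, or 98.4%.

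Merging replicate 2 and FOXA1 peaks where they overlapped gave 66998 regions. Both factors were present in 22614 regions, or 33.8%, which spanned 19.75 Mb with a median width of 795 bp. NKX2-1 alone was present in 25089 regions, or 37.4%, spanning 16.9 Mb with a median of 617 bp. FOXA1 alone was present in 19295 regions, or 28.8%, spanning 9.93 Mb with a median of 497 bp. The shared regions were mostly simple: 21816 of them, or 96.5%, held exactly 1 peak of each factor. In 442 regions 1 NKX2-1 peak met several FOXA1 peaks, in 285 several NKX2-1 peaks met 1 FOXA1 peak, and in 71 both factors had several. Replicate 1, which took no part in the merging, had a peak in 16.5% of the shared regions, 8.97% of the NKX2-1-only regions and 0.32% of the FOXA1-only regions. The first 2 of these shares are not matched on score, and at matched score their order turns as given above.

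Overlap rose with the score of a peak. Scores are those the authors deposited, read on the scale of -10 times log10 p, and deciles were taken within each list. From the lowest to the highest decile of replicate 2 scores, the share with FOXA1 was 26.7, 29.8, 32.9, 36.7, 41.3, 45.8, 52.5, 59.3, 69.4 and 83.7%. Over the deciles of FOXA1 scores, the share with NKX2-1 was 27.9, 31.9, 38.3, 42.8, 48.2, 53.6, 61.6, 69.5, 79.8 and 91.7%. Each step was upward in both lists. Scores saturate at 3100, a value reached or passed by 95 replicate 2 peaks and 137 FOXA1 peaks. FOXA1 was found at 88 of the 95, or 92.6% (85.6 to 96.4). All 137 of these FOXA1 peaks had NKX2-1, and a count of 0 without it allows a share of up to 2.19%. Wider peaks overlapped more often too, from 31.4% to 59.0% between the extreme deciles of replicate 2 width and from 24.26% to 89.2% between those of FOXA1 width.

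**Figure D1:**
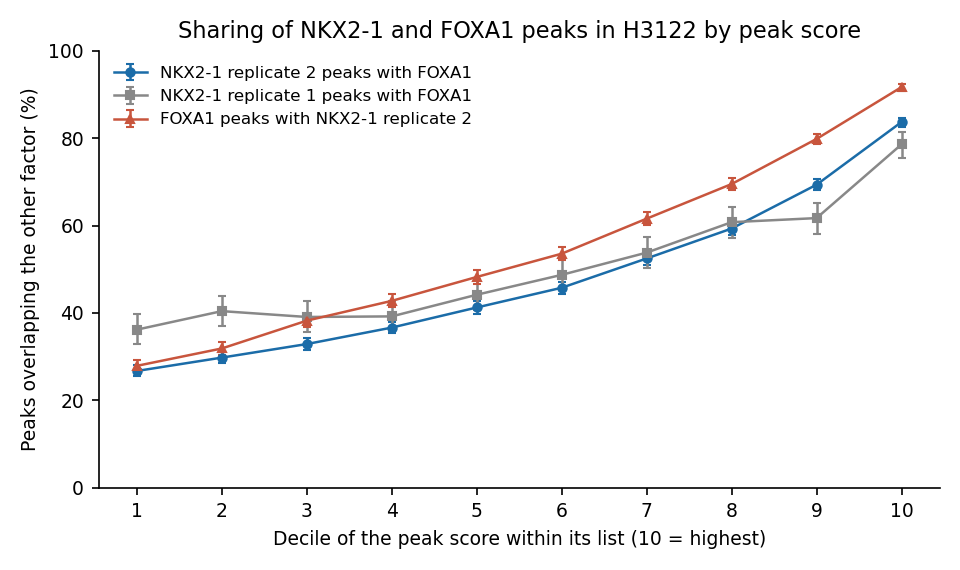
Share of peaks (%) that overlap a peak of the other factor, by decile of the score within the list (10 is the highest), for NKX2-1 replicate 2, NKX2-1 replicate 1 and FOXA1. Bars are 95% Wilson intervals; the share rises from 26.7% to 83.7% in replicate 2 and from 27.9% to 91.7% in FOXA1.

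At shared sites the scores of the 2 factors ranked alike only in part. Over the 23492 overlapping pairs Spearman's rho was 0.31, and over the 21816 regions with 1 peak of each it was 0.32. Between the 2 NKX2-1 lists it was 0.42 over 6107 pairs, and between replicate 1 and FOXA1 it was 0.14 over 3768 pairs. Widths of the paired peaks were more alike, with a rho of 0.49. Both measures share local read depth and the width dependence of scores, whose rho with width was 0.54 in replicate 2 and 0.56 in FOXA1. Of the 21816 simple regions, 1381 (6.33%) were in the highest decile of both lists. The NKX2-1 peak was in its highest decile in 17.1% of the simple regions, and the FOXA1 peak in its own in 16.8%. At the opposite extremes, 318 regions had an NKX2-1 peak of the highest decile over a FOXA1 peak of the lowest 3 deciles, and 237 had the reverse. Low-scoring peaks were shared less often in both lists, which by itself keeps these counts small, and no reference value was computed.

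The centres of overlapping NKX2-1 and FOXA1 peaks lay close together. The median distance between midpoints was 76.5 bp (75 to 78) over 23492 pairs, with quartiles of 34.5 and 148 bp, a 90th percentile of 291.5 bp and a largest value of 1599.5 bp. Midpoints were within 50 bp of each other in 35.2% of pairs, within 100 bp in 60.5%, within 200 bp in 83.2% and within 500 bp in 96.3%. The FOXA1 midpoint was on the right of the NKX2-1 midpoint in 50.1% of pairs and on the left in 49.6%. The median overlap was 548 bp, and the median share of the narrower peak lying in the wider was 99.6%. Overlaps of less than 100 bp made up 1.58% of pairs, so the 1 bp rule seldom rested on touching edges.

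The scale for this distance is the one between the lists of a single factor. Replicate 1 and replicate 2 midpoints lay a median of 78.5 bp apart (76.0 to 81.5) over 6107 pairs, and replicate 1 and FOXA1 midpoints 82.0 bp (78.5 to 85.0) over 3768. Over all pairs, FOXA1 was no farther from replicate 2 than replicate 1 was, but the 2 sets of replicate 2 peaks differ. At replicate 2 peaks found in replicate 1, FOXA1 lay at 84.5 bp (81.5 to 89.0), against 78.5 bp for replicate 1. Measured from replicate 1, FOXA1 was slightly farther, at 82.0 against 78.5 bp, with overlapping intervals. Median widths were 333 and 844 bp in pairs of the replicates. They were 703 and 641 bp in pairs of replicate 2 and FOXA1, and the part of width was not tested. The 3448 regions with exactly 1 peak of each of the 3 lists compare the same peaks. There the median was 75 bp (72.0 to 78.0) between the NKX2-1 replicates, 75 bp (71.5 to 78.0) between replicate 2 and FOXA1, and 81.0 bp (77.0 to 84.5) between replicate 1 and FOXA1.

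Within single regions the lists were compared by which midpoint lay nearer. In those 3448 regions the replicate 1 midpoint was nearer to replicate 2 than to FOXA1 in 54.2% (52.5 to 55.9). The replicate 2 midpoint was nearer to replicate 1 than to FOXA1 in 50.3% (48.65 to 52.0), an interval that includes equal shares. In 1324 regions replicate 2 lay over 100 bp from FOXA1. Replicate 1 lay on the same side of FOXA1 as replicate 2 in 1054 of them, or 79.6% (77.35 to 81.7). The FOXA1 midpoint is common to both displacements and its own error counts in each, so this share is a description with no reference value. Midpoints are of called intervals, since the files give no summits. They do not resolve the DNA sites themselves.

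**Figure D2:**
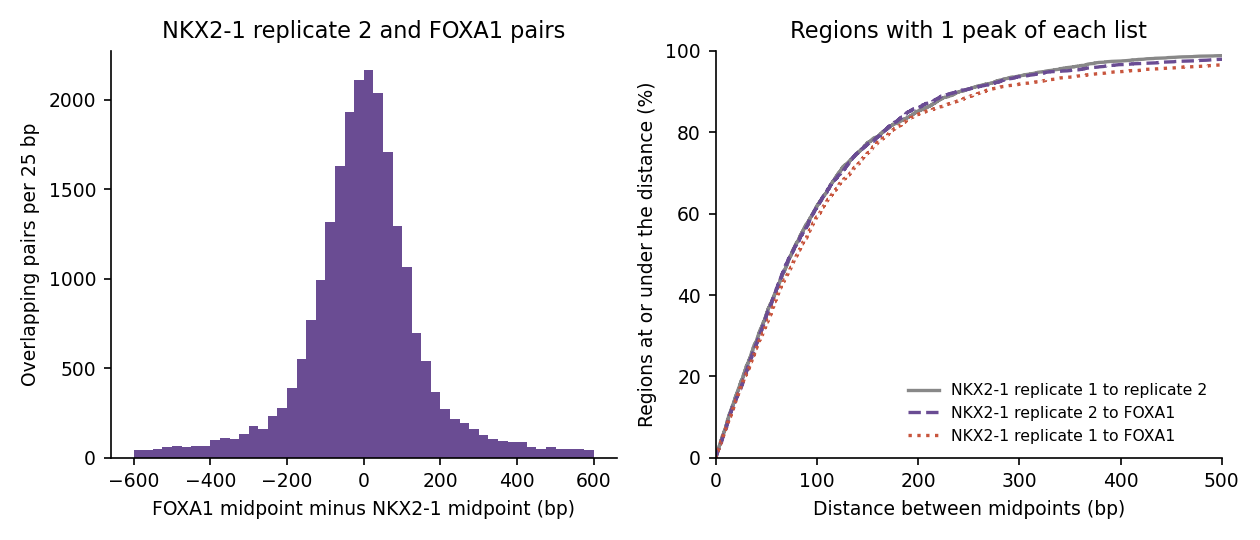
Left, number of overlapping replicate 2 and FOXA1 pairs by the signed distance from the NKX2-1 to the FOXA1 midpoint (bp), in bins over the central range; the counts are centred on 0 and even on both sides. Right, cumulative share (%) of the 3448 regions with 1 peak of each list by absolute midpoint distance (bp) for the 3 pairs of lists; the lines nearly coincide, with medians of 75 bp for replicate 1 to replicate 2, 75 bp for replicate 2 to FOXA1 and 81.0 bp for replicate 1 to FOXA1.

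The distance was somewhat larger at stronger NKX2-1 peaks. Medians by decile of replicate 2 score ran from 70.0 to 85.0 bp, with 70.0 bp (66.5 to 75.5) in decile 4 and 85.0 bp (81.5 to 89.0) in the highest. By decile of FOXA1 score the lowest decile had 85.75 bp and the highest 72.5 bp. Pairs in regions with 1 peak of each factor had a median of 70.5 bp. Pairs in the highest decile of both lists had 75 bp. Pairs whose NKX2-1 peak was also found elsewhere were spaced a little wider, at 84.5 bp for replicate 1, 85.5 bp for H1819 and 93.5 bp for H2087. The NKX2-1 peaks of these pairs were also wider, with medians of 889, 835 and 844 bp against 703 bp over all pairs. From the lowest to the highest decile of replicate 2 score that width rose from 490 to 924 bp. The part of width in these distances was not tested.

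Shared peaks were wider and scored higher than peaks of a single factor. Replicate 2 peaks with FOXA1 had a median width of 699 bp (695 to 702) and a median score of 197, against 617 bp (614 to 620) and 108 without. FOXA1 peaks with NKX2-1 had 639 bp (636 to 642) and 207, against 497 bp (495 to 500) and 99.7 without. In replicate 1 the widths were 341 and 296 bp and the scores 80.0 and 69.3. At matched score the 2 factors parted. Within deciles of replicate 2 score the ratio of median widths, with over without, had a median of 0.996 and exceeded 1 in 3 of 10 deciles; the largest, 1.12, was in the highest decile (911 against 814 bp). Within deciles of FOXA1 score the shared peaks were wider in 10 of 10, by ratios of 1.12 to 1.18. The lowest FOXA1 decile had medians of 483 bp with and 423 bp without NKX2-1, and the highest had 800 and 677 bp. Replicate 1 was between the 2 lists, with ratios of 1.01 to 1.11 and 10 of 10 above 1.

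Along the chromosomes the median gap from a peak to the next of its own list was 21896 bp in replicate 2, 26645 bp in FOXA1 and 174124 bp in replicate 1. Merged regions of the 2 main lists followed each other at a median of 16178 bp. NKX2-1 peaks without FOXA1 were mostly not near-misses of the overlap rule. Their median distance to the nearest FOXA1 peak was 13352 bp (12990 to 13748). It was at most 500 bp for 6.62% of them, 1 kb for 11.22% and 10 kb for 43.7%, and over 100 kb for 6.89%. FOXA1 peaks without NKX2-1 had a median of 12272 bp (11878 to 12649) to the nearest NKX2-1 peak, with 7.41% within 500 bp, 12.4% within 1 kb, 45.5% within 10 kb and 6.54% beyond 100 kb. Single-factor peaks of the highest score decile lay nearer to the other factor, though they too were mostly not near-misses. Their median distance was 9388.5 bp (8200 to 10577) for 784 NKX2-1 peaks and 9655 bp (6646 to 11579) for 353 FOXA1 peaks. It was at most 500 bp for 6.25 and 8.50% of them.

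Shared peaks sat in denser surroundings of their own list. The nearest peak of the same list was a median of 6959 bp away for NKX2-1 peaks with FOXA1 and 9438 bp for those without. For FOXA1 peaks these distances were 7949.5 bp with NKX2-1 and 13469 bp without. Neither contrast is matched on score or width. Neighbouring peaks under 1 peak of the other factor also count as both shared and close. This held for 2 FOXA1 peaks at 506 replicate 2 peaks and for 2 replicate 2 peaks at 354 FOXA1 peaks. The order of the regions along a chromosome was only mildly grouped by kind. After an NKX2-1-only region the next region was again NKX2-1-only in 41.4% of cases, where such regions made up 37.4% of all next regions. After a FOXA1-only region it was again FOXA1-only in 30.9%, against 28.8%, and after a shared region it was shared in 35.7%, against 33.8%.

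Shared regions also formed chains. With gaps of at most 10 kb between neighbours, 13916 shared regions stood alone, and 8698, or 38.5%, were joined into 3630 chains of 2 or more. There were 922 chains of 3 or more and 121 of 5 or more. The longest held 13 shared regions in 7q32.3, on chromosome 7 from 130214156 to 130261914 in hg18, and spanned 47.8 kb. It contained 19 replicate 2 peaks, 13 FOXA1 peaks, 3 replicate 1 peaks and 5 regions of a single factor. Chains of 9 followed in 4q32.1 (39.3 kb) and 10q11.23 (28.5 kb). Among 7 chains tied at 8 regions, the first by position were in 2p14 (17.95 kb) and 2q23.3 (22.6 kb). Close succession was found in each class and was most frequent after shared regions. The next region of any class lay within 10 kb for 10022 of 22607 shared regions. It did so for 9831 of 25076 NKX2-1-only regions and 6906 of 19291 FOXA1-only regions. The class of such close neighbours was only mildly grouped. At gaps of at most 10 kb, the region after a shared one was shared in 39.5%, against 37.8% of all next regions. NKX2-1-only regions followed their own kind in 40.7%, against 36.6%, and FOXA1-only regions in 28.0%, against 25.7%. Chains of the other classes are not given here.

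The sharing varied over chromosomes more for NKX2-1 than for FOXA1. The share of replicate 2 peaks with FOXA1 was highest on chromosome 13, at 56.7% (54.3 to 59.1), and lowest on chromosome 19, at 26.31% (23.95 to 28.8), a range of 30.4 percentage points. Chromosomes 22, 16 and 17 were also low, at 33.6, 35.2 and 38.1%. The share of FOXA1 peaks with NKX2-1 ran only from 51.1% on chromosome 13 to 60.6% on chromosome 19, so the order of these 2 chromosomes was turned around. In replicate 1 chromosome 19 was again lowest, with 27.9% of its peaks overlapping FOXA1. Chromosome 13 had 56.8%, and chromosome 18 was highest with 61.3% (51.8 to 70.0) of 106 peaks. Over 23 chromosomes the shares of the replicates had a Spearman rho of 0.78; the points share the FOXA1 list and the base composition and gene content of each chromosome.

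Per Mb of whole chromosome length, the chromosomes with a low share differed in the densities of their classes. Chromosome 19 held 14.6 NKX2-1-only regions per Mb against 8.14 over the genome, a relative density of 1.79. Its shared and FOXA1-only regions were sparser than the genome's, at relative densities of 0.70 and 0.55. Chromosome 17 had many NKX2-1-only regions too (1.5), with shared regions at the genome's mean (1.01). On chromosomes 16 and 22 NKX2-1-only regions were near the mean (0.96 and 1.01), and shared regions were sparse (0.57 and 0.56). The ratio of replicate 2 to FOXA1 peaks was 2.28 on chromosome 19, 1.56 on 22, 1.47 on 16, 1.41 on 17 and 0.89 on 13, where it was 1.13 over all chromosomes. Chromosomes 16, 17, 19 and 22 are known for high gene density, and chromosome 13 for low. Among chromosomes 1 to 22 and X, density was lowest on X for all classes, at 0.37 (shared), 0.48 (NKX2-1 only) and 0.42 (FOXA1 only) times the genome's. Unsequenced stretches were not taken out of the chromosome lengths. They lower the density of every class on a chromosome, so a value near the genome's mean need not hold per sequenced Mb. Copy number and read mappability by chromosome were not measured here, and their part in these densities was not tested.

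**Figure D3:**
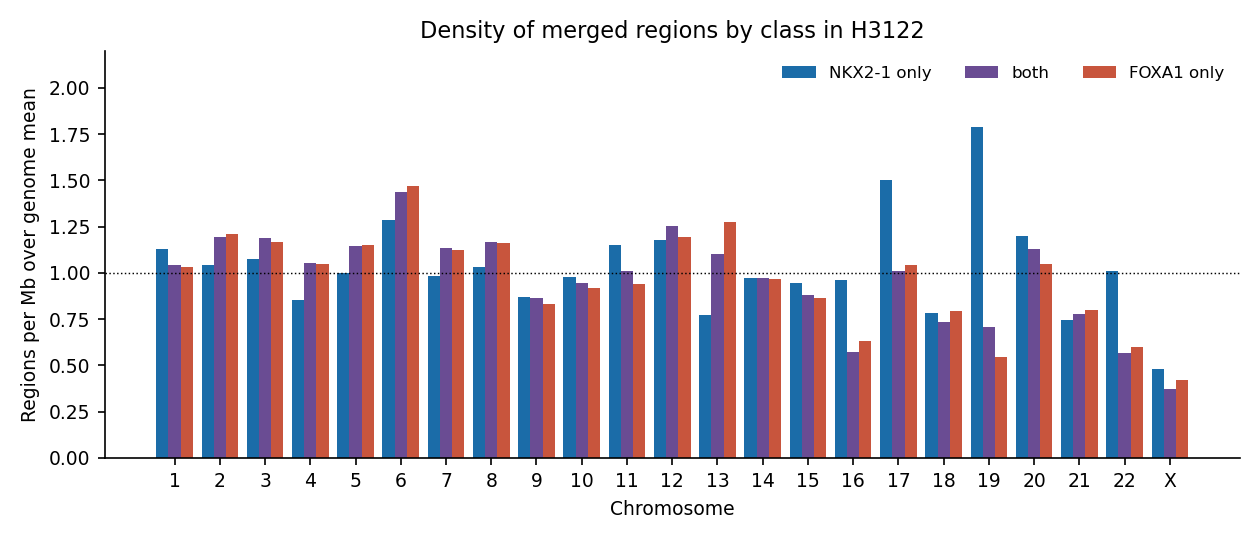
Density of merged regions (regions per Mb divided by the genome's mean for that class) by chromosome, for NKX2-1 only, both factors and FOXA1 only; the dotted line is the genome mean. On chromosome 19 NKX2-1-only regions reach 1.79, against 0.70 for both and 0.55 for FOXA1 only, and all 3 classes are below 0.5 on X.

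In windows of 1 Mb the 2 lists rose and fell together, with a Spearman rho of 0.83 between counts over 2800 windows; windows share mappability and copy number. The log2 ratio of NKX2-1 to FOXA1 density, each relative to its list and with a pseudocount of 1 peak, had a median of -0.03 over the 2019 windows with at least 20 peaks. Its 10th and 90th percentiles were -0.57 and 0.64. It was above 1 in 85 windows and below -1 in 27. Of the 5 windows tipped most to NKX2-1, 4 lay on chromosome 19. The first, at 9 to 10 Mb (19p13.2), had 18 replicate 2 and 3 FOXA1 peaks, a log2 ratio of 2.07. Windows in 19q13.42 (32 and 6 peaks), at the border of 19q13.32 and 19q13.33 (40 and 8), in 19p13.3 (39 and 8) and in 8q24.3 (21 and 4) followed, with log2 ratios of 2.06 to 1.96. Replicate 1 had 2 to 8 peaks in each.

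The windows tipped most to FOXA1 lay on other chromosomes. The first, at 59 to 60 Mb of chromosome 4 (4q12 to 4q13.1), had 4 replicate 2 and 17 FOXA1 peaks, a log2 ratio of -2.03. Next came 13q21.33 (6 and 20 peaks), the window at 18 to 19 Mb of chromosome 4 (5 and 15), 7p21.3 (9 and 22) and 9q21.13 (7 and 17). Replicate 1 had at most 1 peak in each of these. Counts this small leave wide counting error, and replicate 1 has too few peaks to order the windows itself. Among the 428 cytogenetic bands with at least 50 replicate 2 peaks, the share with FOXA1 had a median of 49.2% and 10th and 90th percentiles of 32.6 and 61.8%. It was lowest in 19q13.31 (11 of 55 peaks, 20%), 16q22.1, 16p11.2, 19p13.3 and 19p13.12, all at most 20.75%. It was highest in 13q13.2 (45 of 63 peaks, 71.4%), 1q43 (70.15%), 1q24.3 (69.0%), 2p12 (68.6%) and 2p22.2 (68.2%).

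The bands of lung and epithelial genes were looked at as a list of 32. Gene positions in hg18 were not used here, so each value belongs to the band, which holds many other genes, and not to the gene. The share of replicate 2 peaks with FOXA1 had a median of 47.5% over the bands and ran from 20.2 to 65.6%, close to the whole list's 47.8%. The interval included 47.8% in 21 bands, lay above it in 4 and below it in 7.

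The band of NKX2-1 itself and its neighbours SFTA3, NKX2-8, PAX9 and MBIP, 14q13.3, held 50 replicate 2 peaks, 28 of them with FOXA1, or 56.0% (42.3 to 68.8). It held 43 FOXA1 peaks, 29 of them with NKX2-1, or 67.4% (52.5 to 79.5), and 10 replicate 1 peaks, 7 of them with FOXA1. The band of the FOXA1 gene, 14q21.1, held 51 replicate 2 peaks, 24 with FOXA1, or 47.1% (34.1 to 60.5), and 55 FOXA1 peaks, 23 with NKX2-1, or 41.8% (29.7 to 55.0). All 4 intervals include the share of the corresponding whole list. The band of FOXA2, the close relative of FOXA1 in lung epithelium, was 20p11.21, where 36 of 75 replicate 2 peaks had FOXA1, or 48.0%.

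Alveolar genes lay in bands of both kinds. The surfactant protein bands were near the whole list: 45.3% (34 of 75 peaks) in 2p11.2 with SFTPB, 50.0% (41 of 82) in 8p21.3 with SFTPC and 39.5% (34 of 86) in 10q22.3 with SFTPA1, SFTPA2 and SFTPD. So were 3q27.1 with LAMP3, a lamellar body protein, at 42.2%, and 5p15.33 with LPCAT1, a surfactant lipid enzyme, at 46.7%. Low shares were found in 16p13.3 with ABCA3, the lipid transporter of lamellar bodies, at 26.2% (38 of 145, 19.7 to 33.9). They were also found in 19q13.33 with NAPSA, the aspartic protease napsin A, at 24.5% (23 of 94, 16.9 to 34.0). In 19q13.33 the FOXA1 list had 31 peaks, of which 23 had NKX2-1, or 74.2% (56.8 to 86.3). The bands of the secretoglobins, secreted proteins of the airway, differed among themselves. The share was 23.9% (11 of 46) in 11q12.3 with SCGB1A1 and 26.32% (20 of 76) in 5q35.3 with SCGB3A1, but 56.25% (45 of 80) in 5q32 with SCGB3A2.

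The 4 bands above the whole list were 7p21.1 with AHR, a ligand-activated transcription factor, at 65.6% (105 of 160, 58.0 to 72.5), and 5q23.2 with ZNF608, at 64.0% (130 of 203, 57.2 to 70.3). The others were 7q31.2 with the receptor tyrosine kinase MET, at 63.6% (56 of 88, 53.2 to 72.9), and 12p12.3 with the LIM-only factor LMO3, at 63.6% (84 of 132, 55.2 to 71.3). Replicate 1 had FOXA1 at 9 of 12, 20 of 22, 9 of 11 and 15 of 19 peaks in these bands, against 50.3% of all its peaks; these counts are small, and peaks of the 2 replicates are largely at the same places. Among other receptor kinases, 7p11.2 with EGFR had 57.9% (22 of 38) and 1p31.3 with ROR1 49.2% (88 of 179). The band 12q13.2 with ERBB3 had 33.3% (12 of 36).

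Bands of further epithelial transcription factors had shares of 55.6% (18q11.2, GATA6), 54.7% (3q26.33, SOX2), 53.2% (17q24.3, SOX9), 52.6% (6p25.3, FOXQ1), 45.8% (7q31.1, FOXP2) and 42.9% (20q13.12, HNF4A). All of their intervals included the whole list's share. So did those of 3q22.3 with CLDN18, a tight junction protein, at 47.1% and 12p13.1 with GPRC5A at 50.0%. The remaining low bands were 16q22.1 with CDH1, the gene of E-cadherin, at 20.2% (19 of 94, 13.34 to 29.4), 21q22.3 with the trefoil factors TFF1, TFF2 and TFF3 at 37.0% (44 of 119), and 1q32.1 with ELF3 and MYBPH at 37.1% (65 of 175). Of the 7 low bands, 3 lay on chromosomes 16 and 19, which were low as wholes.

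**Figure D4:**
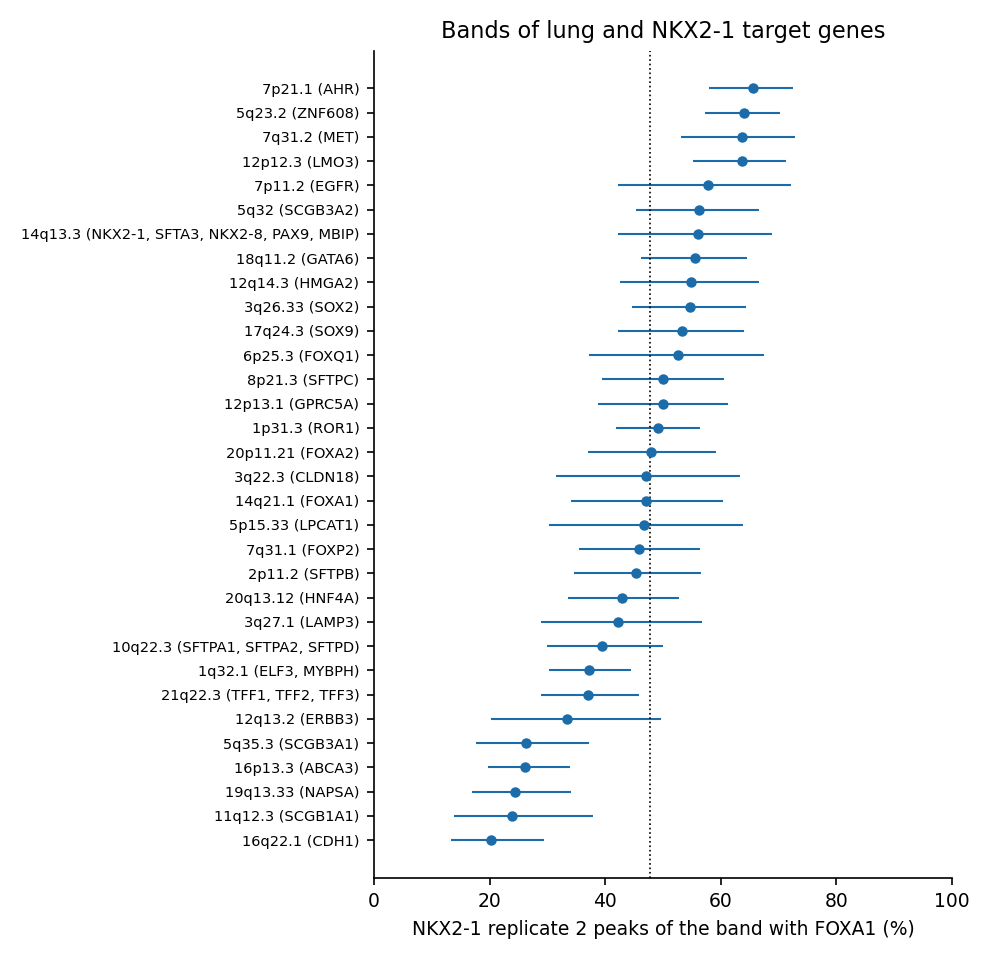
Share of NKX2-1 replicate 2 peaks with FOXA1 (%) in the 32 cytogenetic bands of the gene list, with 95% Wilson intervals and the 47.8% of the whole list as a line. Each point is a whole band that holds many other genes; shares run from 20.2% (16q22.1) to 65.6% (7p21.1).

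NKX2-1 lists that took no part in the overlap gave a further reading of the classes. Of the replicate 2 peaks with FOXA1, 16.3% were also found in replicate 1, against 8.97% of those without, a difference of 7.30 percentage points (6.70 to 7.89). The difference was 1.33 points in H1819 (15.4 against 14.1%, 0.70 to 1.97) and -3.05 points in H2087 (18.4 against 21.5%, -3.77 to -2.34). Peaks with FOXA1 had higher scores, and scores moved the comparison. Weighted over deciles of replicate 2 score, the differences were -3.11 points for replicate 1, -5.63 for H1819 and -10.5 for H2087. Peaks without FOXA1 were found more often in each of the 3 lists in 10 of 10 deciles. In the highest decile, the share found in H2087 was 33.6% with FOXA1 and 50.0% without; in H1819 it was 33.5 and 41.7%, and in replicate 1 it was 53.5 and 59.1%.

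The replicate 1 list gave another order. Its peaks with FOXA1 were found in replicate 2 in 98.2% of cases and those without in 65.05%, and the difference within deciles of replicate 1 score was 29.5 points, positive in 10 of 10. In H1819 they were found in 29.7 and 21.08% of cases, with a score-matched difference of 4.77 points, and in H2087 in 31.8 and 28.0%, with 0.60 points, positive in 6 of 10 deciles. Averaged over deciles, replicate 1 thus did not give the lower recovery of FOXA1-bearing peaks that replicate 2 gave in the other lines. Its higher-scoring peaks did so in H2087, with differences of -1.16, -6.04, -10.5 and -7.18 points in deciles 7 to 10, of which that of decile 9 had an interval without 0 (-17.7 to -3.25). In H1819 the highest decile had -3.21 points, with an interval that included 0.

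FOXA1 peaks without NKX2-1 in H3122 were seldom NKX2-1 sites in the other lines. H1819 NKX2-1 was found at 1.97% of them and at 15.0% of FOXA1 peaks with H3122 NKX2-1. H2087 NKX2-1 was found at 2.15 and 18.1%. Within deciles of FOXA1 score the differences were 11.7 and 15.7 points, and both were positive in 10 of 10 deciles. FOXA1 was not measured in H1819 or H2087, and the lists of the lines differ in length.

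**Figure D5:**
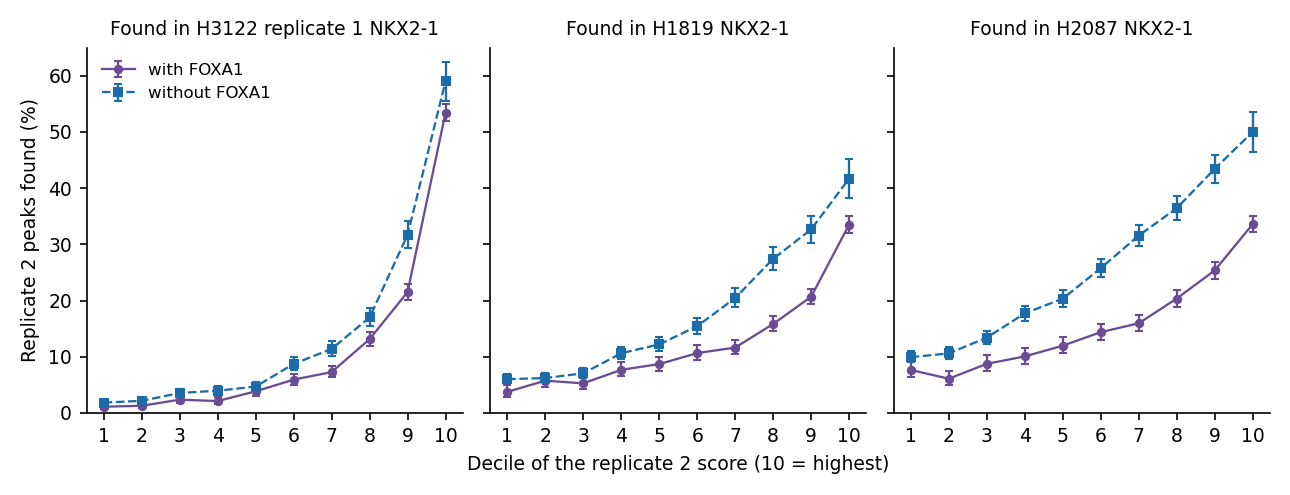
Share of NKX2-1 replicate 2 peaks (%) found in H3122 replicate 1, H1819 and H2087, for peaks with and without FOXA1, by decile of replicate 2 score; bars are 95% Wilson intervals. Peaks without FOXA1 lie above those with it in each decile of each panel, up to 50.0 against 33.6% in the highest decile for H2087.

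Single regions were ranked by the sum of their score ranks in the lists concerned. Among regions with both NKX2-1 replicates and FOXA1, the first was in 11p13 (chromosome 11, 31789751 to 31790797), with scores of 1060 in replicate 1, 3100 in replicate 2 and 3100 for FOXA1. The midpoints of its replicate 2 and FOXA1 peaks were 1.5 bp apart. Next were 15q23 (chromosome 15, 67673208 to 67674781), 15q26.1 (chromosome 15, 91147693 to 91149015), 12q23.2 (chromosome 12, 102290814 to 102291755) and 20p12.1 (chromosome 20, 14021847 to 14022970). Their replicate 1 scores were 827, 618, 526 and 459, all had 3100 in the other 2 lists, and their midpoints were 138, 41.5, 14.5 and 34.0 bp apart. All 5 had an H1819 peak, and the first 3 also had an H2087 peak, where the shares over all highest-decile replicate 2 peaks with FOXA1 were 33.5 and 33.6%.

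Among regions of both NKX2-1 replicates without FOXA1, the first was in 1q23.1 (chromosome 1, 155162405 to 155163125), where the nearest FOXA1 peak was 10838 bp away. The next was in 2q35 (chromosome 2, 216271480 to 216272066), with scores of 543 and 3174 in the replicates and FOXA1 4572 bp away. Regions in 1q32.1 (chromosome 1, 205242411 to 205243488), 5q31.3 (chromosome 5, 139158894 to 139159812) and 1q25.3 (chromosome 1, 178821152 to 178822899) followed, with replicate 2 scores of 2523, 2693 and 2604. Their nearest FOXA1 peaks were 17802, 77216 and 7552 bp away. All 5 had an H2087 NKX2-1 peak, and 4 had an H1819 peak, the exception being 2q35; over all replicate 2 peaks of the highest decile without FOXA1 these shares were 50.0 and 41.7%.

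The highest FOXA1 peaks without NKX2-1 in H3122 were in 2q37.1, 20q12 (chromosome 20, 39712304 to 39712969), 7q11.22 (chromosome 7, 68841900 to 68842828), 5q12.1 (chromosome 5, 58992800 to 58993401) and 14q13.1. The first missed NKX2-1 narrowly, with a replicate 2 peak 368 bp away. The others had their nearest replicate 2 peak at 6290, 6283, 6646 and 41860 bp. H1819 had an NKX2-1 peak at the first and H2087 at the last. The region with the most peaks was in Xq24 (chromosome X, 118519452 to 118522093), where 4 replicate 1, 2 replicate 2 and 2 FOXA1 peaks made 8. It was followed by regions of 6 peaks in 2q11.2, 2q24.1, 4p16.1 and 13q31.1.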

How the data were processed

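Peak lists from 3 H3122 libraries (NKX2-1 replicates 1 and 2, FOXA1) were analysed, with the H1819 and H2087 NKX2-1 lists as outside readings. Per the submitters' processing notes, the authors used Bowtie, build hg18 and MACS 1.4.0; the labels tie each list to 1 library. The input behind each list is unstated, and calling thresholds are not spelled out. The names of the replicate 2 and FOXA1 lists carry a common tag that the replicate 1 name lacks. Its lowest score also differs, so replicate 1 appears to have been called with other settings. The deposited score of each peak was taken as -10 times log10 p, from its lowest values (50 in replicate 1, 60 in the other lists), and scores were used only within a list, as ranks, deciles, medians and cut-offs. Read depth is not given, so precision rests on the number of peaks alone.

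Overlaps, midpoint distances, edge-to-edge gaps and merged regions were computed with pandas 2.3.3, numpy 2.4.6 and scipy 1.17.1 in Python 3.11.15, and plots with matplotlib 3.10.9. Shares carry Wilson intervals, differences Newcombe intervals and medians order-statistic intervals, all at 95% and for counting error only. Score-matched differences are means over 10 deciles. The weight of a decile was its number of peaks with FOXA1 (for FOXA1 peaks, with NKX2-1) times its number without, divided by their sum. Chromosome lengths came from GenomeInfoDb 1.38.1 and bands from circlize 0.4.16 in R 4.3.3. Overlap, distance and gap functions were tested on simulated data with known answers. No p-value was computed. Members, gene bands and comparisons were chosen with earlier results of these data known.

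Regions were named by rule: the 5 with the lowest sum of score ranks in both replicates and FOXA1, and in both replicates without FOXA1; the 5 top-scoring FOXA1 peaks free of NKX2-1; the 5 with most peaks; the 5 longest chains; the 5 windows at each end of the log2 ratio; and the extreme chromosomes. Bands at the extremes of the share were named after their values were seen. Genes were assigned to bands by general knowledge and not checked against an hg18 annotation; 1 planned band is not reported here. Alternatives changed the score limit, the overlap and merging rules, the NKX2-1 list, the chromosomes, the windows and the matching. Planned counts near genes and motif searches were not run, since sequence and gene annotation of hg18 were not used here.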

Additional observations from a re-analysis of the deposited data

Results flagged for a closer look

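The difference between NKX2-1 replicate 2 peaks with and without FOXA1 had opposite signs in the other lines: 1.33 percentage points in H1819 and -3.05 in H2087. Whether the lines differ was not tested, since each has 1 list. At matched replicate 2 score both were negative, at -5.63 and -10.5 points.

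Some peaks lay outside the named autosomes, X and Y, and so outside all comparisons. They were 10 of the 48071 replicate 2 peaks and 8 of the 42437 FOXA1 peaks, above the limit of 3 used to flag them. The replicate 1 list had 0 among its 7469 peaks. The limit does not scale with list length, so these counts set no list apart.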

How the results depend on the processing

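Over 17 results, 71 alternatives left 23 values within their interval (for counts, within a fixed ratio), moved 45 and reversed 3; the cause was not tested unless named. Intervals are narrow because lists are long, so moved does not mean large. The reversed values were the difference found in replicate 1 (7.30 points, -3.11 matched on score) and in H1819 (1.33 points, -5.63 matched on score and -1.16 on width). Matching moved the H2087 difference from -3.05 to -10.5 (score) and -6.78 (width), and the replicate 1 difference to 4.38 (width) and 6.30 (midpoint rule).

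The NKX2-1 share of 47.8% became 46.6% at scores of at least 100, 38.1% with the 7469 highest peaks of both lists, 62.4% for peaks of both replicates, 42.7% with 50% mutual overlap, 45.0% by midpoint and 51.25% within 500 bp. In the same order the FOXA1 share of 54.5% became 53.7, 38.3, 9.14, 48.4, 52.7 and 57.9%. Fewer peaks in the other list lower a share by construction. The distance of 76.5 bp became 74.5 bp with the highest peaks, 84.5 bp for peaks of both replicates, 66.0 bp with 50% overlap and 70.5 bp for 1 peak of each. At scores of at least 100, shared regions numbered 14710.

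Width ratios of 1.13 (NKX2-1) and 1.29 (FOXA1) became 1.09 and 1.23 at scores of at least 100 and 0.996 and 1.14 within deciles; by midpoint the first was 1.11. Thinner lists widen gaps by construction. At scores of at least 100 and with the highest peaks, distances to the other factor were 20201 and 73931 bp (NKX2-1) and 18343 and 82219 bp (FOXA1), and gaps within the list 33616 and 161433 bp and 40961 and 168896 bp.

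Without NKX2-1 replicate 2, replicate 1 in its place gave shares of 50.3% (NKX2-1) and 8.72% (FOXA1), a distance of 82.0 bp, width ratios of 1.15 and 1.31, distances to the other factor of 16690.5 and 104943 bp and an NKX2-1 gap of 174124 bp. Regions then numbered 3714 (NKX2-1 only), 38729 (FOXA1 only) and 3687 (both). The FOXA1 gap has no such value. The range over chromosomes was 31.9 and 33.4 points in its 2 alternatives, and the 10 named windows kept their direction in all 4. Those windows were picked by the same ratio, and all 4 alternatives reuse the FOXA1 list, so their kept direction is no independent check. No paired analysis was possible because the labels number only inputs and NKX2-1 libraries, FOXA1 has 1 list and no result comes from a test.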

Other observations

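Giemsa staining divides chromosomes into light bands, which are gene-rich, and dark bands, which are AT-rich and gene-poor. By this division, chosen after the data were seen, NKX2-1 peaks without FOXA1 stood apart from the other classes at every score. Their density in unstained over darkest bands was between 1.56 and 2.15 in the 10 deciles of replicate 2 score. It was between 0.94 and 1.27 for NKX2-1 peaks with FOXA1, which were lower in 10 of 10 deciles. FOXA1 peaks without NKX2-1 had 0.83 to 1.29 in the deciles of their own score. In replicate 1 the ratio was 3.33 without and 1.41 with FOXA1. The ratio for NKX2-1 peaks without FOXA1 was thus high at low and high scores alike. Gene starts and open chromatin were not measured here, and their part in it was not tested.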
